A study of Mus musculus with 5 samples.

Results

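The regions described here are the Ring1b peaks that the authors called on chromosome 8 in KAP1 knockout mouse embryonic stem cells. Peaks were taken by position alone: every peak of the list whose chromosome is 8, which gave 1128 of 8928 peaks. The chromosome itself was chosen with earlier results of these data known. The list came from a chromatin immunoprecipitation and sequencing (ChIP-seq) library of KAP1 fl/fl cells given 4-hydroxytamoxifen and precipitated with a Ring1b antibody. It was called against a Ring1b library of Ring1b fl/fl cells given the same drug. The library and its control therefore differ in cell line, in the gene deleted and in how long the drug was present. The list is called the knockout list below. Any difference between the lines, in DNA content or otherwise, or from drug exposure, cannot be told apart from the deletion of KAP1. Beside it stand a KAP1 list (vehicle against 4-hydroxytamoxifen, both KAP1 fl/fl) and a vehicle Ring1b list (vehicle against 4-hydroxytamoxifen, both Ring1b fl/fl). Vehicle was ethanol, the drug or vehicle was given for 24 h, and 48 h of culture followed, with the drug still present for Ring1b fl/fl cells and absent for KAP1 fl/fl cells. All cells grew on irradiated embryonic fibroblasts, and each group was 1 library. Each value therefore describes 1 pair of libraries, with no replicate error and no test between conditions. Intervals are exact at the 95% level and cover counting error over peaks only. They treat peaks as independent, and are too narrow where peaks lie close together in runs. Sequencing depth is unknown here, and peaks do not show whether the deletion took place.

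Ring1b is the catalytic subunit of Polycomb repressive complex 1, which places ubiquitin on histones and helps keep developmental genes silent in embryonic stem cells. In these cells Polycomb complexes are known to gather at promoters rich in CG dinucleotides. KAP1, also called TRIM28, is a corepressor that zinc finger proteins bring to DNA, where it recruits enzymes of heterochromatin, and it is known for silencing repeated sequences.

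Peaks of chromosome 8 were most crowded in a stretch from 19 to 21 Mb and lay along the rest of the chromosome at lower, uneven density. Promoter sequences show how the stretch differs from the rest. RefSeq windows of 300 bases around annotated starts (GRCm38.p6, the build of the peak files) were available for 1204 genes of chromosome 8. The windows numbered 1442, since a gene can have more than 1, and some lie inside the gene. Of these windows, 56 shared at least 1 bp with a knockout-list peak, which is 3.88%, beside 1.14% of the windows of the other autosomes. This share rises with the density of peaks, which was 8.72 per Mb on chromosome 8 beside a median of 3.19 on the other autosomes. Each sequence below runs 5′ to 3′ on the strand of its gene, with CG dinucleotides in capitals. The first 3 lie in the crowded stretch and are CG-poor, and the next 4 lie elsewhere on the chromosome and are CG-rich.
4930467E23Rik (chr8:19729326-19729625, plus strand): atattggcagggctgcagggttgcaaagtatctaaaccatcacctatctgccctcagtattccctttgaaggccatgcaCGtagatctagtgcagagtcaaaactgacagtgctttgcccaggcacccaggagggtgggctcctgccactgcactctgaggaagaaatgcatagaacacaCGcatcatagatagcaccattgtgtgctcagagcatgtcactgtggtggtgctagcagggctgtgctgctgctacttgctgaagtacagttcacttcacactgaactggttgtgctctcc
Gm40468 (chr8:20261150-20261449, minus strand): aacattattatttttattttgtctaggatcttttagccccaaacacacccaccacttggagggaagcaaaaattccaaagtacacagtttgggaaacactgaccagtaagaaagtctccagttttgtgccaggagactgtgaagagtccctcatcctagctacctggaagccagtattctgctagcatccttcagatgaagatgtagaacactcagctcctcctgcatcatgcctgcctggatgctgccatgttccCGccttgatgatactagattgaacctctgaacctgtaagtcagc
Gm46074 (chr8:20649078-20649377, plus strand): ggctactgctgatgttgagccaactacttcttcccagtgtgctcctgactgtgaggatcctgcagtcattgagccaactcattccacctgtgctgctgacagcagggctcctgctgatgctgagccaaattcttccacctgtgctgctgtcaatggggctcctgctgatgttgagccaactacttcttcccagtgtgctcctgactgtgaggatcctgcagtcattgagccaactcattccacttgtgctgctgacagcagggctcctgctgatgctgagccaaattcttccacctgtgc
Prkaca (chr8:83972728-83973027, plus strand): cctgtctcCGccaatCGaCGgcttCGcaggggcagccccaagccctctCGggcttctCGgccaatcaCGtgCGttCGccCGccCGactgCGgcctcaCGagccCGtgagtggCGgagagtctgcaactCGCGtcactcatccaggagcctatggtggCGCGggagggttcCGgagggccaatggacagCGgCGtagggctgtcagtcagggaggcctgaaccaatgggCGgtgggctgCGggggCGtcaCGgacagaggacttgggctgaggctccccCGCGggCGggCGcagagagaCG
Ctu2 (chr8:122475893-122476192, plus strand): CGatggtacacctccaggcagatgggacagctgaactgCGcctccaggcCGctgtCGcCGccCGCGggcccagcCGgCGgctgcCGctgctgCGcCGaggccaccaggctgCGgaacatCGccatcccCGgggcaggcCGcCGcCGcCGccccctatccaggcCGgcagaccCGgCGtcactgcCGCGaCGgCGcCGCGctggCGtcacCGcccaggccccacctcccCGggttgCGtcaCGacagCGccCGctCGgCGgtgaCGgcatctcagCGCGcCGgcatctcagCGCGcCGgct
Calr (chr8:84846882-84847181, minus strand): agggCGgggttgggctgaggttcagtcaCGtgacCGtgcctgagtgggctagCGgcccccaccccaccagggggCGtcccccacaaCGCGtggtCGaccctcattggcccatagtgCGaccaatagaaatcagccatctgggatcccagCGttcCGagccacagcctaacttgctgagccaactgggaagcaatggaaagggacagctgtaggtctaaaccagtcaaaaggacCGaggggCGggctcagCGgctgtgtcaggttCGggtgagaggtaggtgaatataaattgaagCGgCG
Gm17344 (chr8:109868481-109868780, minus strand): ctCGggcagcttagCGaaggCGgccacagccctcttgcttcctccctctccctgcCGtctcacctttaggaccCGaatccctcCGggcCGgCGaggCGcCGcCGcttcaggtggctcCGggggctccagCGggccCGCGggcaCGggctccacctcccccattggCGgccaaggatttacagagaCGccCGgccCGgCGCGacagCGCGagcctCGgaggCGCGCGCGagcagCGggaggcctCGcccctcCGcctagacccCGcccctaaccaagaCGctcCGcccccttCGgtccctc

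The window of 4930467E23Rik held 2 CG dinucleotides and lay whole inside a peak of 1476 bp. That window lies inside the gene, which spans 19704311 to 19753603. The same 300 bases form windows of 2 other genes of the stretch, Gm21119 (20614677 to 20614976) and Gm15319 (20363153 to 20363452), with 300 of 300 bases identical. The Gm21119 copy also lay whole inside a peak, with a score of 95.5 beside 96.5 at 4930467E23Rik, while the Gm15319 copy had no peak. A read that lies wholly within these bases matches all 3 copies. The authors' way of placing such reads was not given in the sources used here. Identical windows at different genes were rare: 0.985% of the windows of the other autosomes and 1.60% of those of chromosome 8 had one. Among the other 207 pairs of the 21 genes of the stretch that have a window, identity ran from 45.8% to 87.9%. The window of Gm46074, a long noncoding RNA gene, held no CG and repeats a run of 82 bases within itself.

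The other 4 windows carried 17 to 44 CG dinucleotides. Prkaca encodes a catalytic subunit of protein kinase A, Ctu2 acts in the thiolation of transfer RNA, and Calr encodes calreticulin, a chaperone of the endoplasmic reticulum. The highest-scoring peak at each had a score of 139, 106 and 105. Gm17344 is shown because its window is the 1 window of chromosome 8 that met both a knockout-list and a vehicle Ring1b peak, although those peaks did not overlap each other. Its peak had a score of 52.5. The motif CG reads the same on both strands and cannot overlap itself, and 43.9% of the windows of the other autosomes held 10 or more. On chromosome 8 the 51 windows with a knockout-list peak outside the crowded stretch had a median of 23 CG, and 45 of them held 10 or more. Of those 51, 45 met a KAP1 peak and 1 a vehicle Ring1b peak. The 342 windows with a knockout-list peak on the other autosomes were similar. They had a median of 21 CG, 287 held 10 or more, 271 met a KAP1 peak and 15 a vehicle Ring1b peak. On chromosome 8 the 609 windows with a KAP1 peak and the 190 with a vehicle Ring1b peak both had a median of 22. The 777 windows of chromosome 8 with no peak of any list had a median of 4. The 5 windows with a peak inside the stretch held 0 to 2, and all 22 windows of the stretch were CG-poor, with a median of 1.5 and at most 9.

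Chromosome 8 had more knockout-list peaks than any other autosome. It held 12.6% of the whole list (11.95% to 13.3%). Of the 8467 peaks on autosomes it held 13.3%, on 5.25% of the autosomal span. There were 8.72 peaks per Mb (8.22 to 9.25 by an exact Poisson interval), against 2.37 on chromosome 6 and 4.68 on chromosome 13, the lowest and highest of the other 18 autosomes. The median of those was 3.19, and chromosome 8 stood 2.73 times above it. Neither of the other lists placed chromosome 8 high. KAP1 had 31.9 peaks per Mb there, rank 12 of 19, beside a median of 34.3 on the others. Vehicle Ring1b had 4.13 per Mb, rank 16 of 19, beside a median of 5.38. Both of those lists were called between libraries of a single line. The share of protein-coding genes on chromosome 8, 5.04% of those on autosomes, was also below its share of span.

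**Figure D1:**
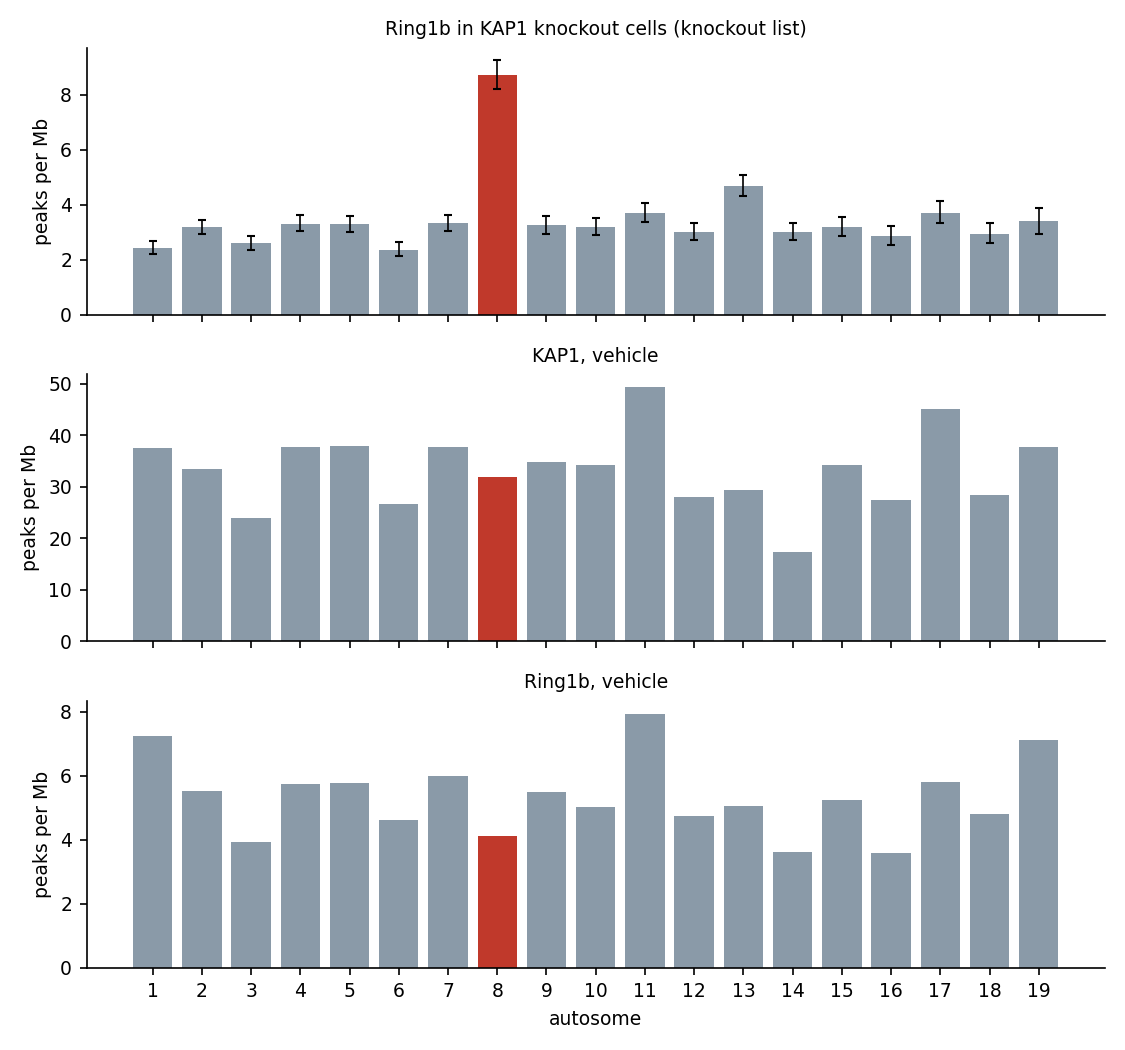
Peaks per Mb (vertical axes, from 0) on each autosome (horizontal axis) for the knockout list, the KAP1 list and the vehicle Ring1b list, with chromosome 8 in red and exact Poisson 95% intervals on the knockout list. Chromosome 8 stands at 8.72 in the knockout list and ranks 12 and 16 of 19 in the other lists.

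In 1 Mb bins, 2 neighbouring bins of chromosome 8 stood apart. The bin from 19 to 20 Mb held 77 peaks and the bin from 20 to 21 Mb held 229, together 306 peaks or 27.1% of the chromosome. This pair of bins, picked out after its counts were seen, is called the dense stretch. The third bin, from 69 to 70 Mb, held 42 peaks. Of its 22 protein-coding genes, Gm7697 had 15 peaks within 5 kb and Gm9495 had 5, while the zinc finger genes Zfp868, Zfp963 and Zfp866 had 1 each. The zinc finger genes Zfp930, Zfp964 and Zfp869 of the same bin had none. The fourth, from 125 to 126 Mb with Tsnax, Disc1 and Sipa1l2, held 20, and the fifth, from 117 to 118 Mb with Cmip and Plcg2, held 19. On the other autosomes 2 of 2322 bins reached 20 peaks, both of them a neighbouring pair on chromosome 13 from 65 to 67 Mb with 190 peaks. The variance of the bin counts was 51.6 times their mean on chromosome 8 and 33.3 times on chromosome 13, and from 1.37 to 2.46 times on each of the rest.

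**Figure D2:**
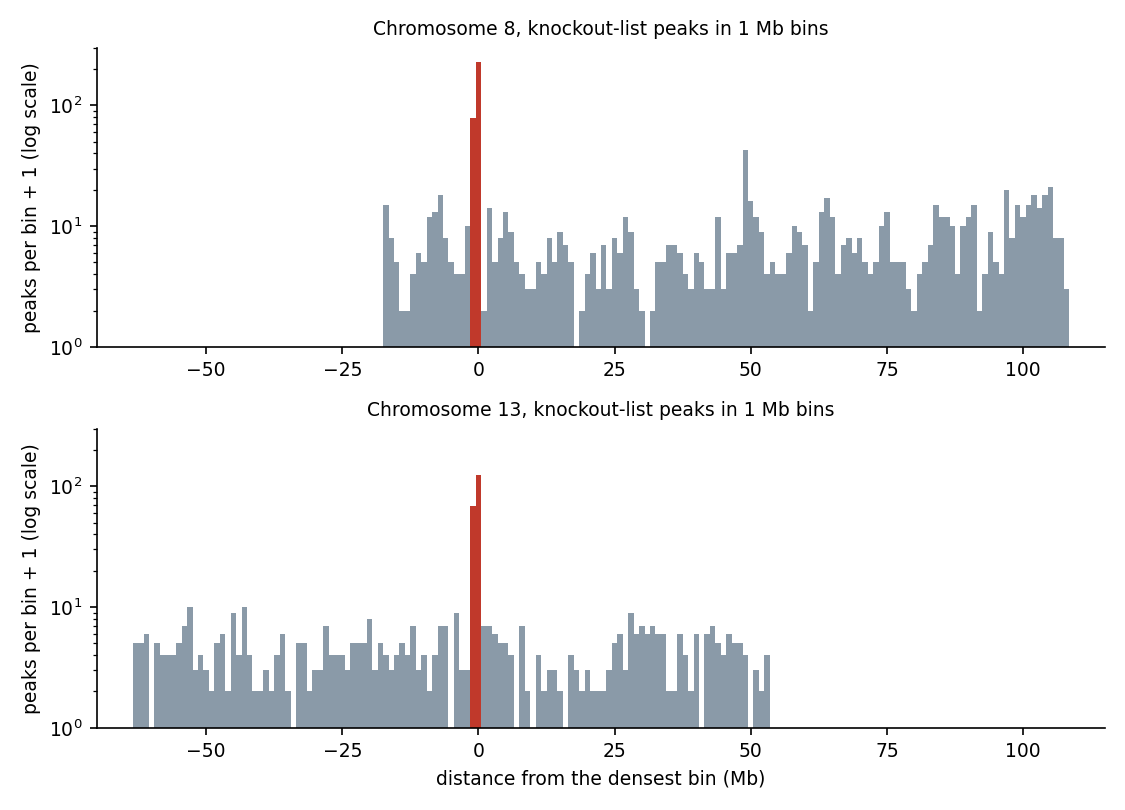
Knockout-list peaks plus 1 in each 1 Mb bin (vertical axes, log scale) by distance in Mb from the densest bin (horizontal axis), on chromosome 8 (upper panel) and chromosome 13 (lower panel), with the 2 densest bins of each in red. Chromosome 8 reaches 229 peaks in a bin and chromosome 13 reaches 122. The median bin holds 5 peaks on chromosome 8 and 3 on chromosome 13.

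Outside the dense stretch the chromosome was still well covered. The remaining 822 peaks gave 6.46 per Mb, which is 2.02 times the median of the other autosomes. With the 5 densest bins of every autosome left out, chromosome 8 had 5.97 peaks per Mb, and the others had 2.08 to 3.33. The median bin of chromosome 8 held 5 peaks (quartiles 3 and 9), and the medians of the other autosomes ran from 2 to 3. Of the 127 bins outside the stretch, 28 held 10 or more peaks, or 22.0%, against 48 of 2322 bins on the other autosomes, or 2.07%. Empty bins numbered 5 of 129, and 3 of those were the first 3 Mb, which are empty on every autosome in this list. In whole windows of 10 Mb, with the dense stretches of chromosomes 8 and 13 left out, chromosome 8 ran from 3.2 peaks per Mb between 50 and 60 Mb to 8.4 in the windows that start at 60 and 110 Mb. The 9 Mb after the last whole window, from 120 to 129 Mb, were denser than any of these, with 108 peaks or 12 per Mb. The same remainder on other autosomes, 1 to 9 Mb long where there was one, had 0 to 6.75 per Mb. All 12 whole windows lay above 2.9, the median of 226 windows of the other autosomes, and 9 lay above 4.5, the 90th percentile of those windows.

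**Figure D3:**
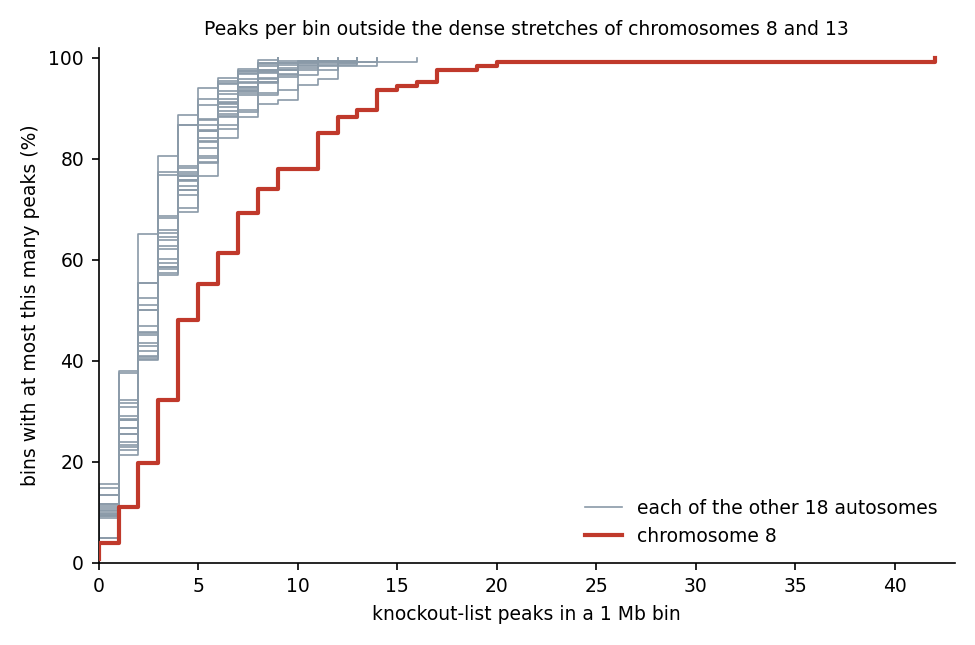
Share of 1 Mb bins (vertical axis, percent) that hold at most a given number of knockout-list peaks (horizontal axis), for chromosome 8 in red and each of the other 18 autosomes in grey, without the dense stretches of chromosomes 8 and 13. The median bin holds 5 peaks on chromosome 8 and from 2 to 3 on the others.

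Bins with more genes held more peaks, and the distance between chromosome 8 and the rest was widest there. In bins with 0 to 4 protein-coding genes the mean was 3.21 peaks on chromosome 8 outside the stretch and 1.97 on the other autosomes, a ratio of 1.63. In bins with 5 to 14 genes the means were 7.07 and 3.61, a ratio of 1.96. In bins with 15 or more genes they were 13.2 and 4.83, a ratio of 2.73. The bins of chromosome 8 in these classes numbered 58, 45 and 24. Unlike chromosome 8, the other autosomes kept their dense stretch here, that of chromosome 13.

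Pseudogenes were the most numerous annotated genes of the dense stretch. Its 2 Mb (chromosome 8, 19000001 to 21000000) held 57 annotated genes, of which 28 were pseudogenes, 23 protein-coding and 6 long noncoding RNA genes. It held 15 KAP1 peaks, 2 vehicle Ring1b peaks and 1 deposited promoter. Its 2 bins of 1 Mb held 8 and 7 KAP1 peaks, and 2 and 0 vehicle Ring1b peaks. The whole chromosome had 31.9 KAP1 and 4.13 vehicle Ring1b peaks per Mb. A peak lay in 25 of the 57 genes, among them 13 of the 28 pseudogenes and 7 of the 23 protein-coding genes. The transcribed pseudogene 2610005L07Rik (20385782 to 20424814) held 23 peaks, and their widths summed to 37.5 kb for a gene of 39.0 kb, some reaching past its ends. The pseudogene 6820431F20Rik (20268286 to 20297432) held 19 peaks, Gm20778 and Gm21092 held 14 each, and Gm6483 held 11. Among protein-coding genes, 4930467E23Rik (19704311 to 19753603) held 19, Gm21119 (20614404 to 20646749) 17, Gm15319 (20337664 to 20363202) 12 and 9530057J20Rik (19903378 to 19935330) 11. Defensins, small antimicrobial peptides of gut and other linings, lie on both sides of these genes. Of the 13 defensin genes inside the stretch, 2 had a peak, beside 25 of all 57 genes there: Defb46 with a score of 53.2 and Defb33 with 57.5. Of all peaks of the stretch, 31.7% met a pseudogene, against 1.09% of the peaks elsewhere on chromosome 8 and 1.77% on the other autosomes. These shares were not set against the bases that pseudogenes cover, and a region with more pseudogenes has more such bases to meet. Whether the excess goes beyond this was not tested. The dense stretch of chromosome 13 also held many pseudogenes, 41 of its 86 annotated genes.

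The 10 peaks of chromosome 8 with the highest scores and the 10 widest were all in the dense stretch, and 6 peaks belonged to both. A score is 10 times the authors' -log10 p and ranks peaks within this list only. The highest, 613, belonged to a peak of 4751 bp that reached into 2610005L07Rik (20381168 to 20385918). The next were 437 at 20301013 to 20304039, which lies 3581 bp from 6820431F20Rik, 409 at 20369727 to 20374223, which lies 6525 bp from Gm15319, and 362 inside Gm15319 (20357218 to 20361515). The widest peak, 6887 bp in 2610005L07Rik (20422498 to 20429384), had a score of only 52.0, close to the list minimum of 50.0. Of the 10 highest, 1 met a KAP1 peak, at the edge of Gm40469 (20545603 to 20549376, score 247, KAP1 score 299). Higher scores than 613 occurred on other autosomes, up to 1942 on chromosome 9.

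Outside the stretch the highest scores were 218 in Banp (121970979 to 121971331), a nuclear matrix protein gene, 185 in Hgsnat (25969543 to 25969959), a lysosomal acetyltransferase gene, and 163 in Mcf2l (12943895 to 12944184). These names were chosen after their values were seen. Of the 10 highest there, 2 met KAP1: a peak 41820 bp from Hpgd with a score of 145.3 and a peak in Rps23rg1 with 145.0. Of the 10, 3 lay in the bin from 69 to 70 Mb, with scores of 150, 144 and 138, at 15681 to 40978 bp from Zfp868 or Gm7697.

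Runs of peaks were counted as 3 or more peaks with at most 10 kb between neighbours. Chromosome 8 had 22 such runs with 354 peaks, or 31.4% of its peaks, and the other 18 autosomes together had 65 with 316 peaks. Chromosome 13 had more runs, 26, holding 30.4% of its peaks, and the median autosome had 2. Of the runs of chromosome 8, 10 lay in the dense stretch and held 300 peaks. The largest, over Gm40469 and Gm21119 (20493270 to 20652938), held 70 peaks on 159669 bp, and peaks covered 37.6% of it. The run around 2610005L07Rik and Gm15319 (20339757 to 20441811) held 45 peaks and was 68.9% covered. A run 26237 bp from 9530057J20Rik (19961567 to 20076613) also held 45, the run over 6820431F20Rik (20257549 to 20326853) held 35, and the run at 4930467E23Rik (19679521 to 19739252) held 34. The 12 runs outside the stretch held 54 peaks, and 5 of them with 31 peaks lay between 69 and 70 Mb, around Gm9495, Gm7697 and Zfp868. The others had 3 or 4 peaks, among them a run in Tsnax (125021517 to 125023723), a DNA and RNA binding partner of translin, and a run in Cdh1 (106608504 to 106611321), which encodes E-cadherin, the adhesion protein of embryonic stem cell colonies. The top score was 105 in the Tsnax run and 53.9 in the Cdh1 run, the latter close to the list minimum of 50.0.

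Neighbouring peaks were separated by a median of 40356 bp on chromosome 8, against medians of 70643.5 bp on chromosome 13 to 248700 bp on chromosome 6 among the other autosomes. Within the dense stretch the median gap was 814 bp and 95.1% of gaps were 10 kb or less. Elsewhere on chromosome 8 the median was 84099 bp, with 12.1% of gaps within 10 kb, beside 185965 bp and 5.65% on the other autosomes without the stretch of chromosome 13.

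Peaks of the dense stretch were wider than those of the rest of the chromosome. They had a median width of 669 bp (quartiles 438 and 1072), and 207 of 306 were wider than 500 bp. Elsewhere on chromosome 8 the median was 160 bp (145 and 203), close to the 157 bp of the other autosomes (142 and 190), and 18 of 822 peaks, or 2.19%, were wider than 500 bp, against 1.54%. The stretch of chromosome 13 lay between, with a median of 230 bp and 11 of 190 peaks over 500 bp. All 20 peaks of chromosome 8 wider than 2 kb were in its dense stretch, and the other autosomes had 3. The dense stretch had 279 kb under peaks, against 160 kb for the rest of the chromosome. Scores followed the same order: medians were 78.7 in the stretch, 69.6 in that of chromosome 13, 58.9 elsewhere on chromosome 8 and 58.8 on the other autosomes.

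**Figure D4:**
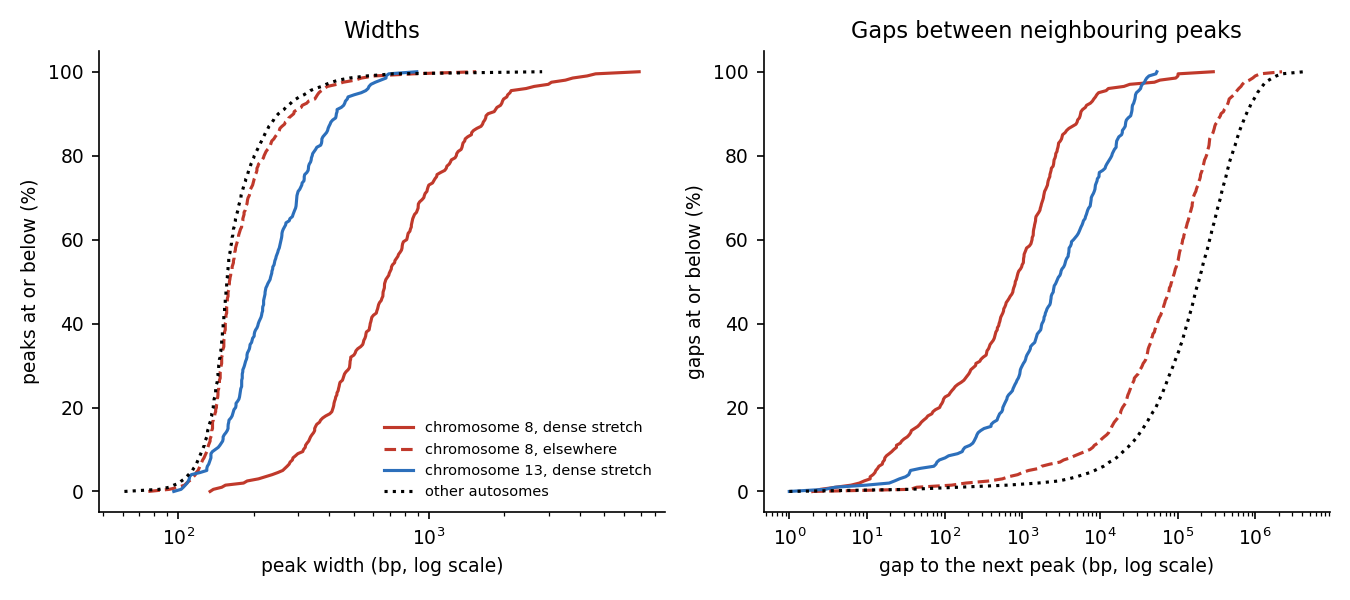
Cumulative share (vertical axes, percent) of peak widths (left, bp, log scale) and of gaps between neighbouring peaks (right, bp, log scale) for the dense stretches of chromosomes 8 and 13, the rest of chromosome 8 and the other autosomes without the stretch of chromosome 13. Widths of chromosome 8 outside its stretch lie near those of the other autosomes (medians 160 and 156 bp), while its gaps are shorter (84099 and 185965 bp).

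The whole list, sex chromosomes included, was also split into 4 groups of equal size by score and by width. Without both dense stretches, chromosome 8 held 9.75% of the whole list (9.12% to 10.4%) and 10.3% of the autosomal peaks. In the groups by score, from low to high, it then held 9.03%, 9.77%, 9.48% and 10.8%. In the groups by width it held 7.70%, 9.50%, 10.1% and 12.2%. It held 11.4% of the peaks that met KAP1 and 9.49% of those that did not.

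Overlap with KAP1 on chromosome 8 was near that of the other autosomes. Of its 1128 peaks, 143 shared at least 1 bp with a KAP1 peak, or 12.7% (10.8% to 14.8%), beside 13.9% on the other autosomes, where single chromosomes ran from 7.98% to 18.5%. The parts of the chromosome differed: 11 of 306 peaks in the dense stretch met KAP1, or 3.59% (1.81% to 6.34%), and 132 of 822 elsewhere, or 16.1% (13.6% to 18.8%). In the stretch of chromosome 13 it was 38 of 190, or 20%, where KAP1 had 139 peaks against 15 in the stretch of chromosome 8. Where a knockout-list peak met KAP1 on chromosome 8, the summits lay a median of 94 bp apart, and 76 of 143 were within 100 bp, beside 93 bp and 53.0% on the other autosomes. The 135 KAP1 peaks of chromosome 8 that were met had a median KAP1 score of 146 and width of 754 bp, and the others 94.6 and 511 bp. Wider peaks have more bases to meet. The KAP1 peaks met were 3.27% of the 4124 KAP1 peaks of the chromosome, against 1.30% on the other autosomes. Counted per KAP1 peak, this share rises with the density of knockout-list peaks, 8.72 per Mb on chromosome 8 beside a median of 3.19. Whether the excess goes beyond this was not tested.

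Deposited promoters are regions mostly of 2 kb that carried KAP1, Ring1b or both in vehicle cells. On chromosome 8, 62 peaks met one, or 5.496% (4.24% to 6.99%), beside 4.93% on the other autosomes. Outside the dense stretch it was 61 of 822, or 7.42% (5.72% to 9.43%), and inside it 1 of 306, at 6820431F20Rik. Counted by promoters, 58 of the 673 on chromosome 8 had a knockout-list peak, or 8.62% (6.61% to 11.0%), against 2.93% on the other autosomes. Nearly all were promoters with KAP1 alone: 54 of 440 of those, or 12.3%, had a peak, against 4.92% on the other autosomes. Of the 203 promoters with both proteins 4 had a peak, or 1.97%, against 0.822%. Of the 30 with Ring1b alone 0 had one, which allows a share of up to 10.0% by a floor of 3 counts and up to 11.6% by the exact interval. On the other autosomes it was 1 of 756. Shares counted per promoter rise with the density of knockout-list peaks, which was 2.73 times the median of the other autosomes. Whether the excess goes beyond this was not tested.

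The promoter peaks with the highest scores came from genes of varied function. After 6820431F20Rik (score 200) came Atp13a1, an ATPase of the endoplasmic reticulum (69790993 to 69791275, score 121), and Rnf166 with its neighbour Ctu2 (122476016 to 122476246, score 106). Calr followed with 105, Tnpo2, a nuclear import receptor, with 104, Cherp, an RNA processing protein, with 102, and Edc4, a factor of mRNA decapping, with 98.2. Frg1, Ankrd10 and Isyna1, an enzyme of inositol synthesis, had scores of 95.5, 92.8 and 91.6. All 10 promoters are in the class with KAP1 alone, and the peak itself met KAP1 at 9 of them, all but Atp13a1. KAP1 scores there were highest at Ankrd10 (804) and Calr (561) and lowest at Edc4 (60.1). The class with KAP1 alone is defined by KAP1 in vehicle cells, so a meeting with KAP1 is largely set by the choice of promoters. That class made up 54 of the 58 promoters of chromosome 8 with a knockout-list peak.

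**Figure D5:**
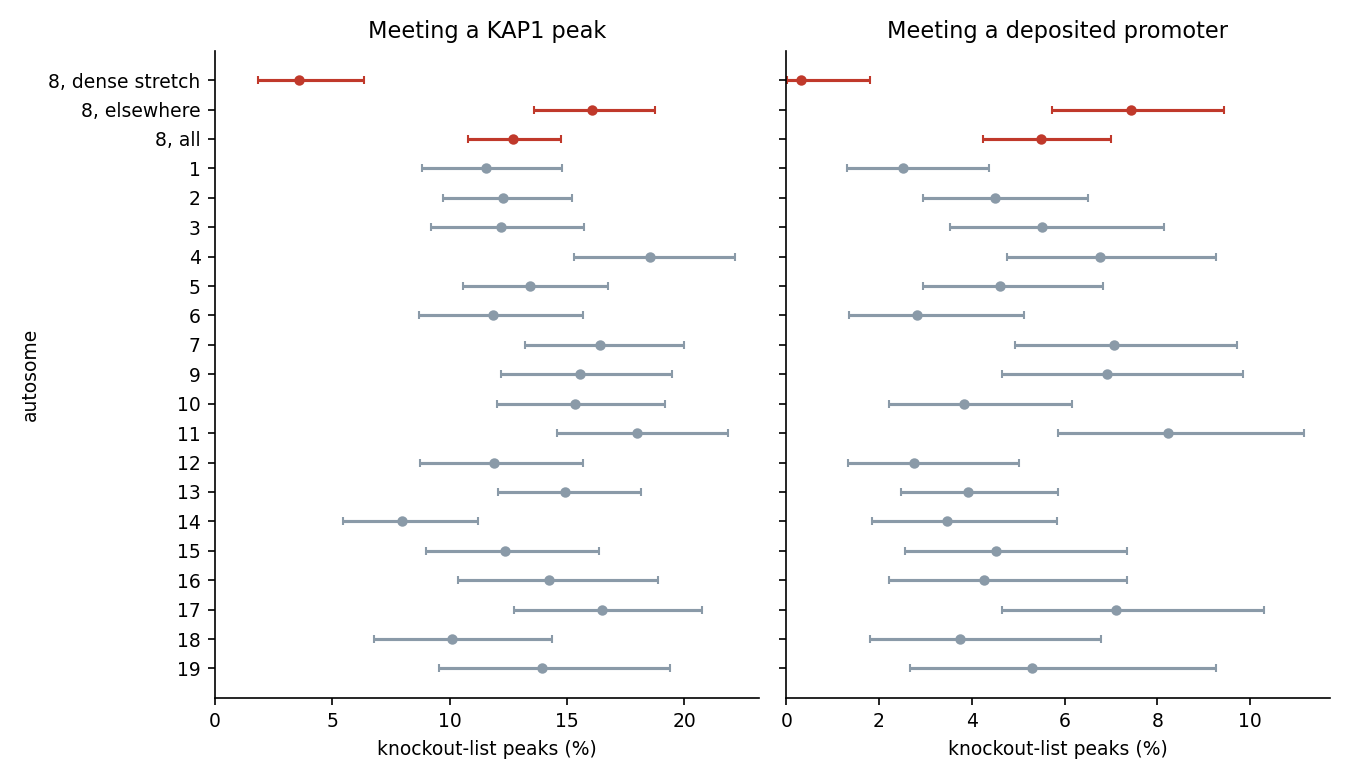
Share of knockout-list peaks (horizontal axes, percent, exact 95% intervals) that met a KAP1 peak (left) or a deposited promoter (right), for chromosome 8 and its parts in red and the other autosomes in grey (vertical axis). All of chromosome 8 lies within the range of the others at 12.7% and 5.496%, and its dense stretch lies at 3.59% and 0.327%.

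Overlap with vehicle Ring1b peaks was rare, as on the other autosomes. On chromosome 8, 4 peaks met one, or 0.355% (0.0967% to 0.905%), beside 0.545%. The first lay in the dense stretch, 44544 bp from 9530057J20Rik (19979874 to 19980207), with a knockout-list score of 56.5 and a vehicle Ring1b score of 83.0. The second was at the promoter of Letm2, a gene of the mitochondrial inner membrane (25596936 to 25597143), with scores of 58.1 and 124. The third was in Fat1, a large protocadherin (44937908 to 44938304), with 63.8 and 112. The fourth lay 3996 bp from Irf2bp2, a transcriptional corepressor (126584174 to 126584300), with 53.5 and 94.1. All 4 also met a KAP1 peak, with KAP1 scores of 158, 349, 378 and 58.6. The 4 vehicle peaks were 441 to 1920 bp wide and the knockout-list peaks over them 127 to 397 bp.

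Genes of chromosome 8 met these peaks more often than genes elsewhere, on a chromosome with 2.73 times the median peak density of the other autosomes. A share counted per gene rises with that density, and whether the excess goes beyond it was not tested. A peak lay in or within 5 kb of 368 of its 1042 protein-coding genes, or 35.3%, against 17.7% of those on the other autosomes. Long genes had the higher share on chromosome 8 and on the other autosomes alike, and they have more bases to meet. Of the 101 genes over 100 kb, 75 had a peak, or 74.3%, against 46.7% on the other autosomes. Of the 343 genes under 10 kb, 61 had one, or 17.8%, against 7.02%. In relative terms the excess of chromosome 8 was larger among these short genes, and in percentage points it was larger among the long genes. Peaks inside a protein-coding gene were 42.8% of those on chromosome 8 and 51.0% outside the dense stretch, beside 46.7% on the other autosomes. Protein-coding genes cover 39.3% of the span of chromosome 8 and 40.01% of the others. After the genes of the dense stretch and Gm7697, Cdh13, a cadherin anchored in the membrane by lipid, had the most peaks, with 12 over 1185 kb. Tenm3, a teneurin of neuronal wiring, and Wwox had 7 each, and Gse1 had 6.

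Gene lists were set against the share of 35.3% of all protein-coding genes of chromosome 8. The share differs with gene length, as given above, and the lists were not matched for length. Of 23 developmental regulators on chromosome 8, 5 had a peak within 5 kb: Irf2, Nkd1, Tox3, Zfhx3 and Cbfa2t3. None of the 6 peaks there met KAP1 or a deposited promoter. All 23 had a KAP1 peak within 5 kb and 22 a vehicle Ring1b peak, beside 867 and 376 of all 1042 protein-coding genes of the chromosome. Regulators without a knockout-list peak included Hand2, Irx3, Irx5, Foxf1, Foxc2 and Sall1. Of 4 pluripotency-associated genes on the chromosome (Zfp42, Klf2, Sall1 and Smad1) 0 had one, and so had 0 of 4 metallothioneins, which bind metal ions. Of 25 numbered zinc finger genes 8 had one, or 32.0%, among them Zfp1, whose promoter held peaks with a top score of 73.8, and Zfp827 with 107. Of 8 cadherins 4 had one, Cdh8, Cdh11, Cdh1 and Cdh13, with 18 peaks in all. Carboxylesterases, which break down esters in liver and gut, had 1 of 19, at Ces1g, and defensins 2 of 53. None of the fixed KAP1 and Polycomb genes lies on chromosome 8.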

How the data were processed

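The files rest on 5 ChIP-seq libraries (1 per group) from mouse embryonic stem cells. The submitters' processing notes name bedtools 2.16.2, MACS 1.4.2, Bowtie2 and CASAVA 1.8.2, with mm10 (GRCm38) as build. Each peak carries a score deposited by the authors, 10 times its -log10 p, from the comparison of a pair of libraries named in the file headers. The deposited promoter tables hold the same score, rounded. Read depth and the placing of repeated reads were not given in the sources used here.

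Peaks were counted with Python 3.11.15, pandas 2.3.3 and scipy 1.17.1, with functions tested on simulated peaks against bedtools 2.31.1. Chromosome span ran from base 1 to the last gene or peak. Bins were whole 1 Mb units, and an overlap was 1 bp or more. The 461 peaks on sex chromosomes and contigs entered no chromosome comparison. Genes (21896 protein-coding) and promoter windows came from RefSeq tables of GRCm38.p6, which give no exons. Identity came from global alignment with Biopython 1.88.

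The region and lists were chosen with earlier results of these data known. Named peaks were the 10 highest-scoring and 10 widest, the 5 densest bins, the 5 largest runs, all that met vehicle Ring1b and the 10 highest in deposited promoters. Genes of 8 lists were named where a peak lay within 5 kb. Whole-gene tables were not used. No test was run, since each group has 1 library. Alternatives were stricter scores, merged peaks and other overlaps, gaps, bins and denominators.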

Additional observations from a re-analysis of the deposited data

How the results depend on the processing

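No paired analysis was possible because each group has 1 library. Of 33 alternatives to 7 results, 17 stayed within the interval of the value reported (or within 1.5 times a count) and 16 did not. None brought the density of chromosome 8 down to the median of the other autosomes. The density ratio of 2.73 became 3.23 with the upper 50% of scores, 2.27 with peaks merged within 1 kb, 2.05 without the 5 densest bins of each chromosome and 2.02 without the dense stretch. The ratio of median bins, 1.67, became 3 with the upper 50% of scores, 2.20 in bins of 2 Mb and 2.07 in bins of 5 Mb. Runs numbered 35 with gaps of 5 kb and 12 without the stretch, against 22. With gaps of 5 kb or 20 kb chromosome 8 had more runs than any other autosome. The median width of 186 bp became 246.5 with the upper 50% of scores, 169.5 after merging and 160 without the stretch. The share meeting KAP1 became 19.1% within 1 kb and 16.1% without the stretch, the share at deposited promoters 7.42% without it, and the share meeting vehicle Ring1b 1.06% within 1 kb. Leaving out the stretch was added after seeing the data.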
